A study of Oryza sativa with 24 samples.

Results

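A group of 30 spot sets, out of 224 on a rice small RNA array, was chosen by how far its signal after 2 h of osmotic stress stood apart from the signal at 0.5 and 6 h. For this choice the intensities were taken as log2(intensity + 50), quantile normalized, and averaged over the spots of a set, the hybridizations of a library and the libraries of a time. The 40 sets with the highest and the 40 with the lowest mean over the 5 treated times, each relative to 0 h, were set aside, and so were the 40 of the remainder that were brightest at 0 h. Of the 104 candidates left, the 30 with the largest absolute value of 2 h minus the mean of 0.5 and 6 h, called the 2 h difference below, form the group. It holds 21 sets that peaked at 2 h and 9 that dipped. Since the 2 h difference and the mean relative to 0 h chose the sets, both are given as descriptions, with no test.

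Rice (Oryza sativa) seedlings growing in Yoshida's solution, with days of 13 h at 26 °C and nights of 11 h at 22 °C, received 15% PEG6000, and small RNA was profiled at 0, 0.5, 2, 6, 24 and 48 h. Every sample belongs to this PEG course, and 0 h is its untreated start. No time-matched seedlings without PEG were analysed here, so hours in PEG and hours of growth cannot be told apart. Hours of the day cannot be told apart from them either, except among 0, 24 and 48 h, whole days apart by their labels. Each of the 6 times had 2 libraries, given as biological replications, and each library was hybridized on 2 arrays after labelling by PCR with a Cy5 primer, which makes 12 libraries and 24 arrays. The library was the replicate (n = 2 per time), and its number limits the precision of every value. The sources used here do not give the cultivar, the age of the seedlings or the organ sampled.

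MicroRNAs are short RNAs cut from hairpin transcripts by a Dicer-like enzyme and carried by Argonaute proteins, which they guide to transcripts with a matching site. In plants that pairing is usually near complete and leads to cleavage of the transcript or to less protein from it, and many of the transcripts encode transcription factors. Polyethylene glycol of high mass stays outside the cells and lowers the water available to the root, which is why it is used to mimic drought, and microRNAs of several conserved families are known to respond to drought and salt in plants. The files give a code for each spot set and do not pair it with a microRNA name or a probe sequence. No family, target or sequence is therefore given for a set, the letters R and N of the codes are unexplained, and members that stand for related microRNAs cannot be recognised.

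Each array held 896 spots in 224 sets of 4 neighbouring spots under 223 codes, because R105 appears at 2 places, which were kept apart. Median intensities per array ran from 152 to 566, and 5th percentiles from 11.3 to 194. Spots at or above 60000, close to the scanner's ceiling, numbered 14 to 25 on the arrays of 0.5 h, 5 to 9 on those of 2 h and 10 to 23 on those of 6 h. No set of the group had a spot at that ceiling, and the part of this difference between arrays in the results was not tested.

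The 2 h differences of the group ran from -0.72 to 0.63 on the log2 scale. Their median size was 0.31, against 0.11 over the 104 candidates and 0.19 over all 224 sets. The smallest size in the group was 0.21, and 102 of the 224 sets reached it, those outside the group having been set aside for their brightness or for a large mean change relative to 0 h. The most extreme 2 h differences on the array, 1.19 for R218 and -1.16 for R277, are outside the group for that reason. The group is thus the part of the middle of the array, neither bright nor shifted over the whole course, where 2 h stood out most. These are values of whole samples, in which fewer cells that hold a small RNA and less of it per cell cannot be told apart.

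**Figure D1:**
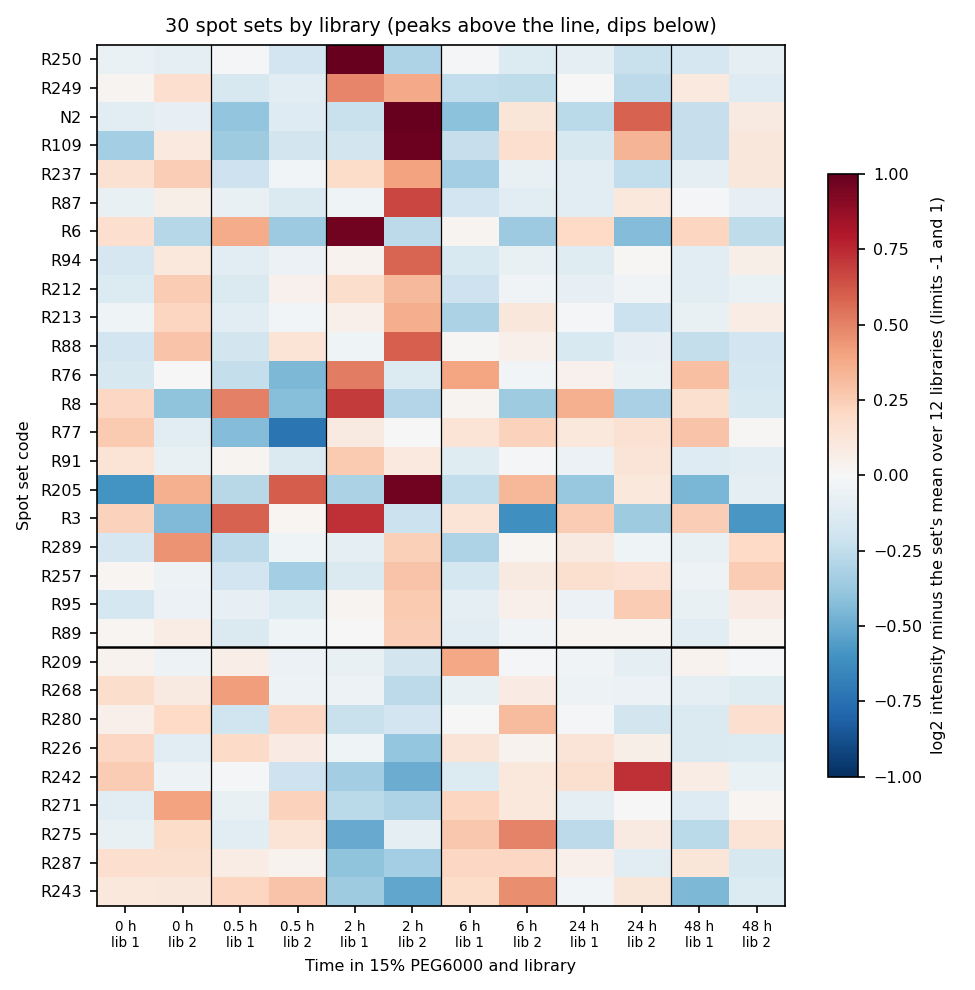
Log2 intensity of the 30 spot sets in each of the 12 libraries, minus the set's own mean over the libraries. Columns are times in PEG with both libraries side by side, the 21 peaks are above the line and the 9 dips below it, colours are limited to -1 and 1, and several of the darkest peaks, such as R250, N2 and R109, are dark in only 1 of the 2 h columns.

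The label of a transient dip or peak was set beside the whole course as a description. The choice used the 2 h values and favours an extreme at 2 h, and no share over all sets was taken. The 2 h mean was the highest of the 6 times in 17 of the 21 peaks and the lowest in 9 of the 9 dips. The 4 exceptions among the peaks were R77, highest at 6 h, R3, highest at 0.5 h, R289, highest at 0 h, and R257, highest at 24 h. In R77 and R289 the 2 h mean was also below that of 0 h, at -0.02 and -0.07 relative to it, so that these sets stood out at 2 h because 0.5 h, or 0.5 and 6 h together, were low. In 24 sets, 15 peaks and 9 dips, 2 h lay farther from 0 h than the mean of 0.5 and 6 h did, and in 6 peaks the reverse held.

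Across the 21 peaks the median level relative to 0 h was -0.11 at 0.5 h, 0.26 at 2 h, -0.08 at 6 h, -0.01 at 24 h and -0.06 at 48 h. Across the 9 dips it was -0.04 at 0.5 h, -0.35 at 2 h, 0.04 at 6 h, -0.15 at 24 h and -0.18 at 48 h. All 224 sets had medians between -0.07 and 0.00 at these times. The peaks lay near their starting level by the median at 24 and 48 h. The dips had a median above 0 h at 6 h, with 7 of the 9 at or above their own 0 h level, and medians below it again at 24 and 48 h. The 0.5 and 6 h values enter the 2 h difference with the opposite sign to 2 h. The choice therefore favours high values at these times in dips and low ones in peaks, and nothing is read from them. The levels at 24 h and at 48 h were below that of 2 h in 19 of the 21 peaks at each time. They were above it in 9 of the 9 dips at each time, and the choice on the 2 h values favours both counts. Of the 9 dips, 2 at 6 h, 7 at 24 h and 8 at 48 h were below their own 0 h level, as were 124, 139 and 133 of all 224 sets.

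R243 had the deepest dip, with a 2 h difference of -0.72, or 1.65-fold lower. Its log2 intensity in libraries 1 and 2 was 9.64 and 9.65 at 0 h, 9.75 and 9.82 at 0.5 h, 9.18 and 9.02 at 2 h, 9.72 and 10.00 at 6 h, 9.51 and 9.66 at 24 h, and 9.09 and 9.40 at 48 h. Both 2 h libraries were below each library of 0, 0.5, 6 and 24 h, and only library 1 of 48 h overlapped them. The dip was -0.55 in library 1 and -0.89 in library 2. R243 was also the set with the highest mean level in the group, 9.54, so it lay well above the dim end of the arrays.

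R287 dipped by almost the same amount in both libraries, -0.54 in library 1 and -0.46 in library 2, with a mean of -0.50, or 1.42-fold lower. Its values in libraries 1 and 2 were 8.01 and 8.00 at 0 h, 7.92 and 7.88 at 0.5 h, 7.44 and 7.50 at 2 h, 8.05 and 8.05 at 6 h, 7.89 and 7.73 at 24 h, and 7.96 and 7.68 at 48 h. The 2 h libraries were the lowest of the 12, with no overlap with any other time. The single arrays were less even, since the 2 h difference was -0.11 and -0.98 on the first and second hybridizations of library 1 and -0.46 and -0.47 on those of library 2. The size of this dip also depended on the processing: it was -0.15 without scaling between arrays, -0.29 with an offset of 200 and -0.28 from the first hybridizations alone.

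The other 7 dips were R275 (-0.49), R271 (-0.41), R242 (-0.36), R226 (-0.32), R280 (-0.29), R268 (-0.25) and R209 (-0.22). R271 had 7.60 and 7.56 at 2 h, below the 7.74 to 8.27 of all its other libraries. R275 was higher in library 2 at every time, with 7.51 and 7.92 at 2 h, and its dip was -0.58 in library 1 and -0.41 in library 2, although the 2 h libraries together overlapped those of 0.5 h, at 7.91 and 8.15. R242 stood at 7.60 and 7.45 at 2 h, below each of its other libraries, and was then highest at 24 h, at 8.11 and 8.68. In all 9 dips the 2 h difference was negative in both libraries.

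R249 peaked in all 4 hybridization series, with a 2 h difference of 0.62, or 1.54-fold higher. Its values in libraries 1 and 2 were 8.19 and 8.33 at 0 h, 8.00 and 8.06 at 0.5 h, 8.65 and 8.54 at 2 h, 7.92 and 7.91 at 6 h, 8.16 and 7.90 at 24 h, and 8.26 and 8.03 at 48 h. Both 2 h libraries were above every other library, and the 2 h difference was positive on each hybridization, between 0.44 and 0.94. With an offset of 200 it was 0.41. R237 also had both 2 h libraries above its neighbours in time, with 8.24 and 8.42 at 0.5 h, 8.63 and 8.85 at 2 h and 8.11 and 8.37 at 6 h. Its 2 h difference was 0.45 in library 1 and 0.46 in library 2, but its 0 h libraries, at 8.60 and 8.69, overlapped those of 2 h.

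R250 had the largest peak by the mean, 0.63 or 1.55-fold higher, and it rested on a single array. Its values in libraries 1 and 2 were 7.13 and 7.11 at 0 h, 7.18 and 7.01 at 0.5 h, 8.60 and 6.89 at 2 h, 7.19 and 7.06 at 6 h, 7.11 and 6.98 at 24 h, and 7.03 and 7.10 at 48 h. At 2 h the first hybridization of library 1 gave 9.90, while the second gave 7.29 and library 2 gave 7.00 and 6.78. On that array the raw intensities of the 4 spots were 4928, 3785, 199 and 177, so 2 of the 4 spots carried the peak. The 2 h difference was 1.41 in library 1 and -0.14 in library 2, and it was 0.02 when only the second hybridizations were used and -0.22 without library 1 of 2 h. The peak of R250 was thus confined to 2 bright spots on 1 array.

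N2 and R109 had the next largest peaks, 0.62 and 0.55, and were examined after their values were seen, since both rested on library 2. N2 had 7.13 and 7.15 at 0 h, 6.84 and 7.10 at 0.5 h, 7.01 and 8.29 at 2 h, 6.82 and 7.35 at 6 h, 6.96 and 7.82 at 24 h, and 7.00 and 7.32 at 48 h in libraries 1 and 2. R109 had 7.01 and 7.45 at 0 h, 7.00 and 7.17 at 0.5 h, 7.17 and 8.33 at 2 h, 7.12 and 7.52 at 6 h, 7.19 and 7.69 at 24 h, and 7.12 and 7.47 at 48 h. In both sets library 2 of 2 h was the highest library and library 1 of 2 h lay within the range of the other times. The 2 h difference of N2 was 0.17 in library 1 and 1.06 in library 2, and that of R109 was 0.11 and 0.99. Without library 2 of 2 h the differences were -0.02 for N2 and -0.04 for R109, and with an offset of 200 they were 0.35 and 0.32.

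Unlike R250, these 2 sets were high on both hybridizations of library 2 and on all spots. The raw intensities of N2 there were 315 to 461 on the first hybridization and 214 to 313 on the second, and those of R109 were 336 to 494 and 242 to 367. N2 follows R109 in spot order within sub-grid 3, but they are not side by side. R109 is the last set of row 7 and N2 the first of row 8. Their log2 intensities had a Pearson r of 0.88 over the 24 arrays, which share time and library, and of 0.71 over the 20 arrays other than those of 2 h.

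**Figure D2:**
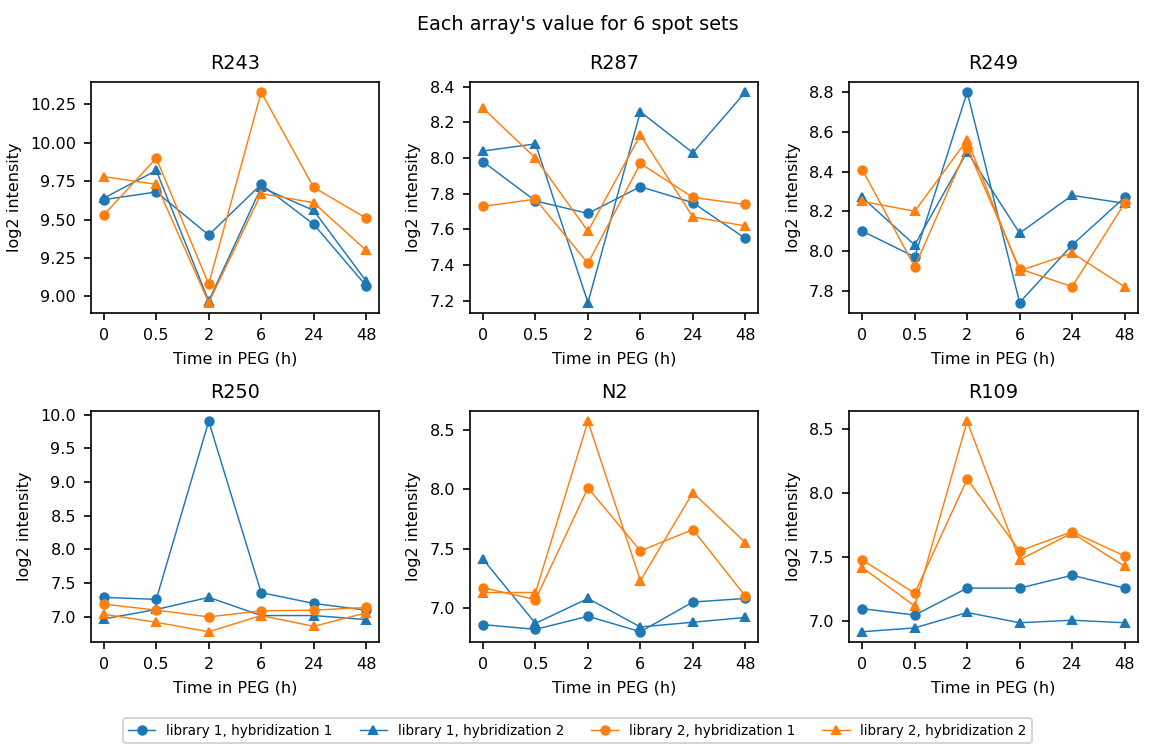
Log2 intensity of 6 spot sets on each of the 24 arrays against time in PEG (h, evenly spaced), with colour for the library and symbol for the hybridization. R243, R287 and R249 move in all 4 series at 2 h, R250 is high on 1 array at 9.90, and N2 and R109 are high on both arrays of library 2.

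The remaining 17 peaks, with their 2 h differences, were R237 (0.46, above), R87 (0.44), R6 (0.44), R94 (0.41), R212 (0.34), R213 (0.29), R88 (0.27), R76 (0.27), R8 (0.26), R77 (0.25), R91 (0.24), R205 (0.22), R3 (0.22), R289 (0.22), R257 (0.22), R95 (0.21) and R89 (0.21). In 11 of the 21 peaks a single library gave over 80% of the summed size of both libraries' differences. Library 1 did so in 5 of them, R250, R6, R76, R8 and R3, and library 2 in 6, N2, R109, R87, R88, R205 and R257. No dip was as uneven, and the median share of the larger library was 81.5% in the peaks and 61.8% in the dips. R6 shows the pattern for library 1, with 7.92 and 7.19 at 0.5 h, 8.52 and 7.29 at 2 h and 7.58 and 7.19 at 6 h. R87 shows it for library 2, with 8.41 and 8.34 at 0.5 h, 8.44 and 9.15 at 2 h and 8.29 and 8.38 at 6 h. The shares of the larger library were taken for the members only. Whether the peaks were more uneven, or the dips less so, than sets outside the group was therefore not tested.

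The spread between the 2 h libraries showed the same contrast between peaks and dips. Its median SD was 0.38 in the peaks and 0.10 in the dips, against 0.17 over all 224 sets. At 0.5 h the median SD was 0.13 in the peaks and 0.13 in the dips, against 0.14 over all sets. The sets were chosen on the mean of these libraries, so this spread is a description and is not independent of the choice.

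**Figure D3:**
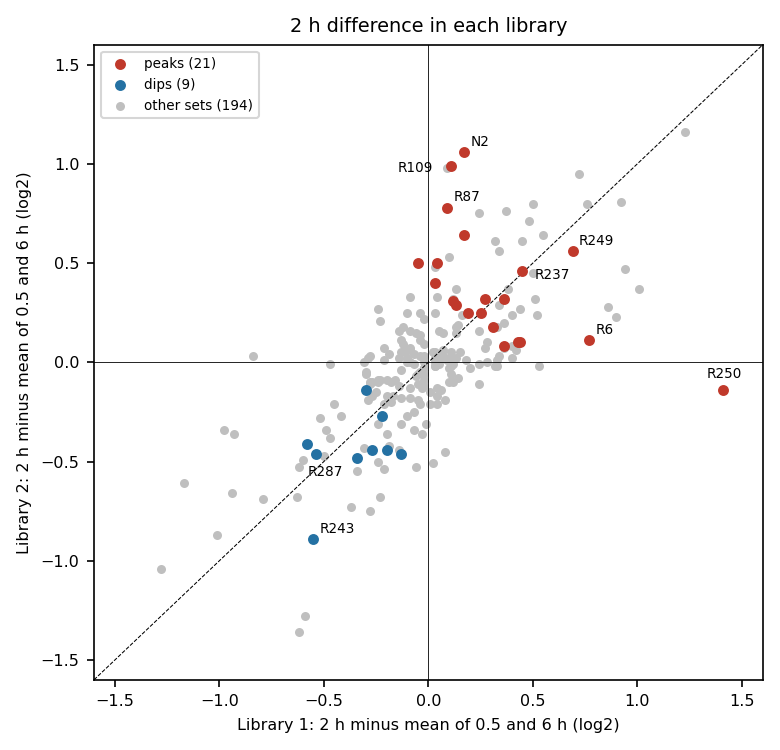
The 2 h difference (2 h minus the mean of 0.5 and 6 h, log2) in library 1 on the horizontal axis and in library 2 on the vertical axis, for the 21 peaks, the 9 dips and the 194 other sets, with the line of equal values dashed. R249, R237 and R287 lie near the line, R250 and R6 near the horizontal axis, and N2, R109 and R87 near the vertical axis.

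The 2 h difference had the same sign in both libraries in 28 of the 30 sets, 19 peaks and 9 dips, and the exceptions were R250 and R205. Over all 224 sets this share was 73.7%. It had the same sign in all 4 hybridization series in 25 sets, against 44.6% of all sets. Both 2 h libraries lay outside the range of the 0.5 and 6 h libraries in 13 sets, against 26.8% of all sets, and these were the peaks R249, R237, R87, R94, R212, R91 and R89 and the dips R243, R287, R271, R242, R226 and R209. All 4 arrays of 2 h lay outside the range of the 8 arrays of 0.5 and 6 h in 4 sets, R243, R287, R249 and R237, against 8.04% of all sets. The choice used these same values, so nothing is read from the counts being above those shares.

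Applying the rule within 1 library and reading the sign in the other gave a description that the choice did not fix. It had 1 library on each side and hence no test. Of 30 sets chosen in library 1 alone, 24 (80%) had the same sign in library 2, against 67.6% of the 74 candidates not chosen and 73.7% of all sets. Their median difference, signed by the direction in library 1, was 0.31 in library 1 and 0.10 in library 2. Of 30 sets chosen in library 2 alone, 26 (86.7%) had the same sign in library 1, against 59.5% of those not chosen. Their median was 0.32 in library 2 and 0.16 in library 1. Sizes in the library that was not used were less than those in the library that chose the sets. Taking the largest differences of 1 library favours this by itself, so nothing is read from it.

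The library 1 choice held 15 of the 30 sets reported here, and the library 2 choice held 16. Only 6 sets were in both choices, the dips R275 (-0.58 and -0.41 in libraries 1 and 2), R287 (-0.54 and -0.46) and R268 (-0.22 and -0.27) and the peaks R237 (0.45 and 0.46), R212 (0.36 and 0.32) and R77 (0.25 and 0.25). Of the members missing from the library 1 choice, 4 were set aside by their mean relative to 0 h in that library and 11 had too small a 2 h difference. For library 2 the mean relative to 0 h set aside 5, R249 and R271 among them, brightness at 0 h set aside 2, R243 and R213, and 7 had too small a 2 h difference. Absence from a choice is therefore not always a small difference in that library. Over all 224 sets the differences of the libraries had a Pearson r of 0.68, and over the 104 candidates one of 0.41, across sets that share the same arrays.

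The 30th place was not a gap in the values. R257, R95 and R89, just inside, had 2 h differences of 0.22, 0.21 and 0.21, and R232, R239 and R9, just outside, had -0.20, 0.19 and 0.19. Library 2 gave most of the difference in R257 (0.40, with 0.03 in library 1) and in R232 (-0.36, with -0.03 in library 1), and library 1 in R239 (0.34, with 0.03 in library 2).

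Contrasts between treated times other than the 2 h difference were tested with limma over all 224 sets, with Benjamini-Hochberg adjustment. They were 6 h minus 0.5 h, 48 h minus 24 h, and the late times (24 and 48 h) minus the early ones (0.5, 2 and 6 h). They ask whether sets that stood out at 2 h also moved elsewhere in the course. The first and second leave out the 2 h values, but the first uses the 0.5 and 6 h values, which also entered the 2 h difference. The last holds the 2 h values. Since the libraries of the peaks spread more at 2 h than at 0.5 h, it is not independent of the choice. The first and the last are therefore given as descriptions. No set of the group passed an adjusted p of 0.05 in any of the 3, except R77 where the library number was a block and R250 where a library was left out.

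For 6 h minus 0.5 h, 0 of the 30 and 0% of all 224 sets passed the adjusted threshold, and 1 of the 30 had an unadjusted p under 0.05, against 4.46% of all sets. The set was R77, with 8.96 and 9.06 at 6 h in libraries 1 and 2, against 8.39 and 8.10 at 0.5 h. The libraries of the times did not overlap, and the log2 change was 0.76 with a standard error of 0.16 (limma adjusted p = 0.372). R77 stood at 9.09 and 8.71 at 0 h and at 8.92 and 8.83 at 2 h, so 0.5 h was its low point. The low 0.5 h value also entered the 2 h difference that chose R77. With the library number as a block R77 passed (adjusted p = 0.0335), as the only member among the 0.893% of sets that did. Over all alternatives its adjusted p lay between 0.0335 and 0.978 and its log2 change between 0.54 and 0.90. The group's changes ran from -0.54 for R3 to 0.76 for R77, with a median of 0.02, against -0.01 over all sets, and 17 were above 0 and 13 below. The standard error for R3 was 0.46 without the block and 0.12 with it (limma adjusted p = 0.0702 with it, so R3 did not pass). With the block, 4 of the 30 and 27 of all 224 sets had an unadjusted p under 0.05.

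For 48 h minus 24 h, 0 of the 30 passed and 0% of all sets did, and with the block these were again 0 and 0%. An unadjusted p under 0.05 was found in 1 set of the group, against 2.68% of all sets. It was R243, with 9.09 and 9.40 at 48 h, against 9.51 and 9.66 at 24 h, and here the times did not overlap either. The log2 change was -0.34 with a standard error of 0.15 (limma adjusted p = 0.996, 0.384 to 0.998 over the alternatives). Its log2 change lay between -0.50 and -0.08 over the alternatives. R243 was thus lowest at 2 h and next lowest at 48 h, and its change from 24 to 48 h did not pass after adjustment over all sets. The group's changes ran from -0.44 for R242 to 0.18 for R237, with a median of -0.02, against 0.01 over all sets.

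For the late minus the early times, 0 of the 30 passed, against 0.893% of all sets, and 2 of the 30 had an unadjusted p under 0.05, against 11.2% of all sets. With the block 12.1% of all sets passed and 0 of the group. The rule had set aside the sets with the largest mean changes relative to 0 h, so nothing is read from the group having fewer calls than all sets. The smallest p in the group was that of R242, with 8.11 and 8.68 at 24 h and 8.02 and 7.88 at 48 h, against 7.93 and 7.74 at 0.5 h, 7.60 and 7.45 at 2 h and 7.81 and 8.05 at 6 h. Late and early libraries overlapped, and the log2 change was 0.41 with a standard error of 0.13 (limma adjusted p = 0.246 without the block and 0.0652 with it). R77 was the other set, with a log2 change of 0.26 (limma adjusted p = 0.438). The group's changes ran from -0.38 for R205 to 0.41 for R242, with a median of -0.05, against -0.02 over all sets, and 9 were above 0 and 21 below. Without library 2 of 2 h the peak R250 passed in this contrast (limma adjusted p = 0.0195), a fit in which 2 h is only the library with the 2 bright spots.

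**Figure D4:**
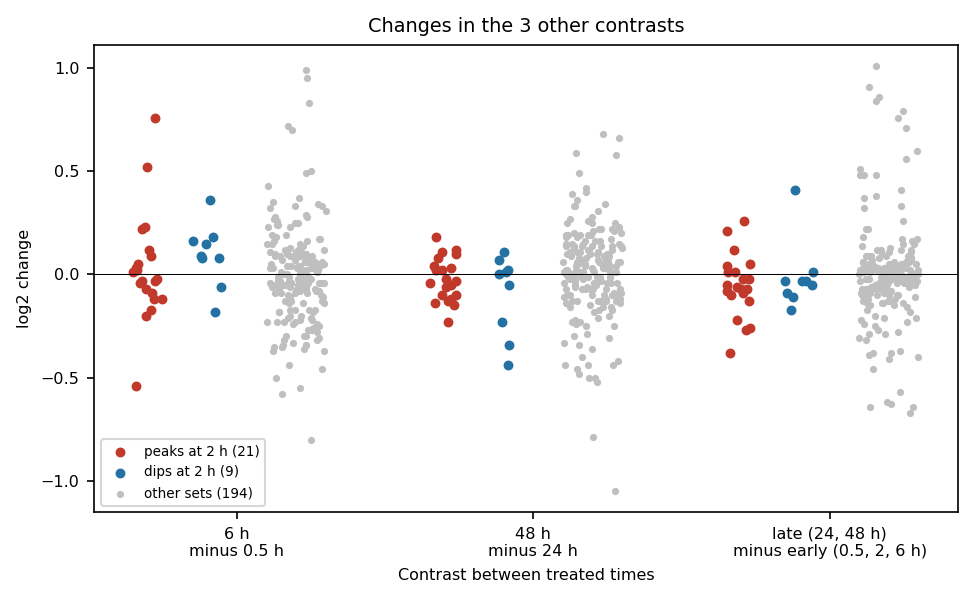
Log2 change in the 3 contrasts other than the 2 h difference, for the 21 peaks, the 9 dips and the 194 other sets, each point 1 set and its sideways place arbitrary. The members lie within the range of the other sets, with R77 at 0.76 and R3 at -0.54 in 6 h minus 0.5 h as the members farthest from 0.

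By level the group was dim, as the rule removed bright sets. Mean log2 intensities ran from 6.83 for R209 to 9.54 for R243, with a median of 7.90, against 7.33 over the candidates and 8.24 over all sets, and the peaks and dips were alike, at 7.93 and 7.87. The mean raw intensity at 0 h was under 100 in 11 of the 30 sets, 9 peaks and 2 dips, and in 57 of the 104 candidates. With an offset of 50 the log2 differences of such sets understate the differences in raw signal. Probe codes starting with N made up 1 of the 30, 8 of the 104 candidates and 14 of all sets.

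Raw signal and scaled signal differed at 2 h, and the dips depended on the scaling. The mean raw intensity of R287 was 172 at 0 h, 205 at 0.5 h, 181 at 2 h, 194 at 6 h, 176 at 24 h and 229 at 48 h, so its raw signal at 2 h was not below 0 h. That of R243 was 718 at 0 h, 784 at 0.5 h, 536 at 2 h, 884 at 6 h, 715 at 24 h and 677 at 48 h, and its dip was present in raw signal too. Without any scaling between arrays the median 2 h difference of all 224 sets was 0.23, that of the 21 peaks 0.62 and that of the 9 dips -0.07. R268 and R209 then no longer dipped. The dips are thus low relative to the other sets on the same arrays, and under median scaling, which keeps the form of each array's distribution, their median was -0.28 and that of the peaks 0.41.

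The printed grid has 14 rows of 16 sets over 4 sub-grids, and in some rows all members had the same direction. Row 6 held 6 members among its 13 candidates, all peaks, namely R87, R94, R88, R91, R95 and R89, and they came from all 4 sub-grids. Row 13 held 4 members among 7 candidates, all dips, R275, R271, R280 and R268. Row 1 held 3, all peaks, R6, R8 and R3, and each of these was a peak of library 1. Row 11 held 5, the peaks R250, R249 and R237 and the dips R243 and R242. The sub-grids held 7, 7, 7 and 9 members.

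The median 2 h difference over the 16 sets of row 1, members included, was 0.22 (0.38 in library 1 and 0.08 in library 2). This was the median farthest from 0 of all rows, and 13 of the 16 sets were above 0. The median was 0.11 in row 6, where 9 of the 16 sets were above 0, and -0.14 in row 13. Rows with few or no members had medians as far from 0 as rows 6 and 13. These were -0.20 in row 2 and 0.11 in row 4, without members, and -0.15 in row 10, with 1 member and 14 of 16 sets below 0. Rows 6 and 13 were thus not set apart from the others by their medians, while row 1 had the most extreme one. No test was made. Among the members, R code numbers rise with the row, while consecutive codes such as R87, R88 and R89 lie in different sub-grids. Likeness of neighbouring codes and the row within the sub-grid therefore cannot be told apart.

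**Figure D5:**
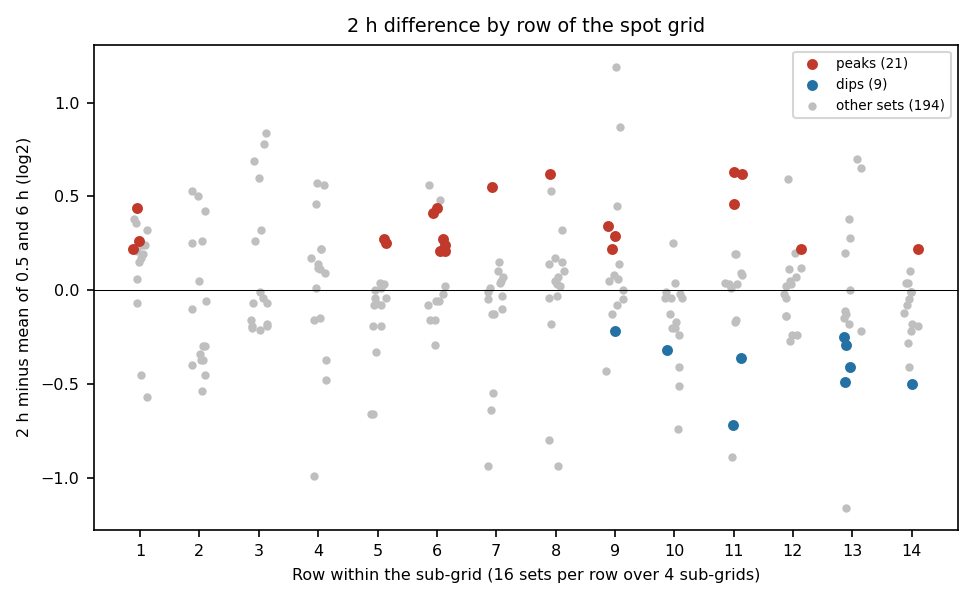
The 2 h difference (log2) of each set against its row of the printed grid, for the 21 peaks, the 9 dips and the 194 other sets, with sideways scatter for legibility. Rows 1 and 6 hold members that are all peaks, and row 13 holds 4 members that are all dips.

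Likeness between members over the course was described by Pearson r across arrays, within and between directions. Across the 24 arrays its median was 0.23 over the 210 pairs of peaks, 0.20 over the 36 pairs of dips and -0.23 over the 189 pairs of a peak with a dip, against -0.01 over all pairs of sets. The 2 h arrays, which entered the choice of the sets, enter these values. Across the 20 arrays of the other times the medians were 0.05, 0.08 and -0.04, against 0.00 over all pairs. These 20 arrays entered the choice too. The times next to 2 h did so through the 2 h difference, and the others through the rules that set sets aside. These medians are therefore not free of the choice, and nothing is read from them. The most alike pairs were N2 with R109 (0.88), R6 with R8 (0.85), R109 with R94 (0.78), N2 with R95 (0.76) and R88 with R205 (0.75). In each of these pairs both sets had a larger peak in the same library, library 1 for R6 and R8 and library 2 for the others. The arrays of a pair share their library and time, so the values describe these 24 arrays only.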

How the data were processed

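Small RNA of 12 rice libraries was measured on 24 spotted 1-colour arrays. Per the file headers, the deposited scanner values are linear: an intensity and a local background for each spot. Background was 0 for nearly all spots (83 of 21504 were above 0), so it was not subtracted. The series table the authors deposited equals intensity less background, spot by spot (largest difference 9e-06). The sources used here give no other step.

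Intensities were taken as log2(intensity + 50) and quantile normalized, and averaged over the 4 spots of a set and the 2 hybridizations of a library. All 224 sets were kept, with no filter on dim ones. limma 3.58.1 in R 4.3.3 fitted the 12 libraries with time as a factor (6 residual degrees of freedom). All tests are two-sided, p-values were adjusted over 224 sets, and a set passed at an adjusted p under 0.05. Standard errors are the moderated ones of limma. The contrasts 6 h minus 0.5 h and 48 h minus 24 h leave out the 2 h values, and all 3 contrasts are orthogonal to the combinations of time means that chose the sets. Orthogonal combinations are independent only where the spread is equal at all times, which the late minus early contrast did not meet. The contrast 6 h minus 0.5 h rests on times that entered the 2 h difference. The median SD between libraries in the members was 0.13 at 0.5 h and 0.17 at 6 h. Both contrasts are therefore descriptions.

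The labels do not say whether the 2 libraries of a time came from separate plants, so the p-values reflect spread between libraries, part of which may be technical. Library numbers pair samples, as checked on the data: library 1 minus library 2, taken over the sets, had an r of 0.492 to 0.766 between times (15 pairs). Where a fit blocked on library number (5 residual degrees of freedom) changed a call, its value is given.

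The members, the lists and the tests were chosen with earlier results of these data known. Every member is named once. Values of all libraries are given for the 2 largest peaks and dips and, chosen after their values were seen, for N2 and R109. Sets next to the 30th place, the set with the smallest p in each contrast and the highest and lowest members by level are named too. Alternatives covered the background correction, offset, scaling, spot average, hybridizations, libraries, deposited table, moderation, block and each library left out. Figures were drawn with Python 3.11.15.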

Additional observations from a re-analysis of the deposited data

Results flagged for a closer look

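Each member was looked at in each time point for an array far from the other 3, by Dixon's ratio of the gap to the range. This marked 16 of 180 groups of 4 arrays. The cut-off would mark about 1 in 20, or 9, if the 4 arrays were independent. They were 2 hybridizations of each of 2 libraries, and the members were chosen on these same data. Nothing is therefore read from 16 being above 9. Arrays are named by library and hybridization, and values are log2 intensities.

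High arrays were as follows. R250 at 2 h had 9.90 on library 1, hybridization 1, with 6.78 to 7.29 on the others. R243 at 6 h had 10.33 on library 2, hybridization 1 (others 9.67 to 9.73). R268 at 0.5 h had 8.13 on library 1, hybridization 2 (7.16 to 7.25). R8 at 6 h had 8.36 (7.56 to 7.61), R209 at 6 h had 7.53 (6.79 to 6.91) and R77 at 48 h had 9.37 (8.81 to 8.86), each on library 1, hybridization 2. R209 at 0.5 h had 7.01 on library 1, hybridization 1 (6.77 to 6.80), and R212 at 0.5 h had 7.62 on library 2, hybridization 2 (7.16 to 7.20).

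Low arrays were as follows. On library 1, hybridization 1, R257 had 8.66 at 6 h (others 9.12 to 9.21) and 8.69 at 48 h (9.31 to 9.36), R87 had 8.16 at 6 h (8.38 to 8.41) and R95 had 6.71 at 0 h (6.90 to 6.94). On library 1, hybridization 2, R280 had 7.60 at 6 h (8.11 to 8.20), R268 had 7.06 at 6 h (7.31 to 7.34) and R289 had 8.10 at 0.5 h (8.55 to 8.62). R249 at 48 h had 7.82 on library 2, hybridization 2 (8.24 to 8.27). Most of these arrays are of 0.5 or 6 h, the times that the 2 h difference is taken against. Their part in the differences was not tested.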

How the results depend on the processing

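How many of the 30 sets the same rule would choose again depended on the processing: 15 under median scaling, 10 without scaling between arrays, 16 from the first hybridizations only, 15 from library 1 alone, 16 from library 2 alone, and 14 to 28 with each library left out in turn, the lowest without library 2 of 2 h. The other alternatives gave 21 to 30. The cause was not tested. The sign of the 2 h difference was kept by 30 of 30 sets in most alternatives, by 28 without scaling (not R268 and R209), by 29 from the second hybridizations (not R3), by 25 without library 1 of 2 h (not R250, R6, R76, R8 and R3) and by 26 without library 2 of 2 h (not N2, R109, R88 and R205). Without library 1 of 2 h the 2 h difference was -0.22 for R250, 1.26 for N2 and 1.13 for R109, and without library 2 of 2 h it was 1.48, -0.02 and -0.04. Over the alternatives the 2 h difference lay between -0.86 and -0.59 for R243, -0.72 and -0.15 for R287, and 0.41 and 0.80 for R249. The number of members past the threshold became 1 (R77) for 6 h minus 0.5 h with the replicate block and 0 to 1 (R250, without library 2 of 2 h) for late minus early times with each library left out. It was 0 to 0 under the same omissions in the other contrasts, and the block changed no other call of a member. These files allow no judgement of signal over background, and with 2 libraries per time small changes would be missed.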
